A study of Mus musculus with 24 samples.

Results

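The SOX8 and SOX9 peaks of postnatal day 17 (P17) mouse retina were compared region by region. Members are the 2400 peaks of the SOX8 list and the 2855 peaks of the SOX9 list, 5255 of the 349901 peaks in the 8 lists of the series. A peak was placed in the shared class when it overlapped a peak of the other factor by at least 1 bp, and otherwise in the SOX9 only or the SOX8 only class. The rule used positions of these 2 lists alone; histone marks, genes and P2 peaks took no part in it. The study profiled wild-type mouse retina at P2 and P17 by CUT&RUN, in which an antibody directs a nuclease to a chromatin-bound protein and the released DNA is sequenced. Each reaction took 600000 nuclei of whole retina, so cell types were not separated, and the number of nuclei bound cannot be told apart from the occupancy in each nucleus. P17 SOX8 was profiled in 4 libraries, 2 with the GeneTex GTX129949 and 2 with the Proteintech 20627-1-AP antibody, and P17 SOX9 in 2 libraries with the Millipore Sigma ab5535 antibody. For the context of each peak, the P17 H3K4me3 and H3K27ac lists (2 libraries each) and the P2 SOX8 (4 libraries) and SOX9 (2 libraries) lists were used. The IgG libraries were not analysed here.

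SOX8 and SOX9, with SOX10, form the SoxE family. Its members bind the minor groove of DNA through a similar HMG domain and prefer short words such as ACAAAG and ACAATG, so the factors can occupy the same elements. In the mature retina both are known chiefly as factors of Müller glia, the radial glia that span the tissue, whereas rod photoreceptors make up most of its nuclei. The histone mark H3K4me3 is found at active gene starts, and H3K27ac there and at active enhancers.

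The P17 H3K4me3 list was compared with cell type markers as a check on the tissue. H3K4me3 lay at 5 of 5 rod markers (among them Nrl, Gnat1, Pde6b and Sag), at 2 of 5 Müller glia markers (Glul and Kcnj10), at 3 of 4 amacrine and horizontal cell markers, 2 of 4 bipolar cell markers and 1 of 3 cone markers, and at 0 of 3 ganglion cell markers. It lay at 0 of 3 microglia, 0 of 2 endothelium and 0 of 3 liver markers, and at 1 of 2 pigment epithelium markers (Best1). SOX9 peaks lay at all 5 rod markers and SOX8 peaks at 3 of them, and neither factor had a peak at a marker of any other type on this list, Müller glia included. The lists carry no height, score or p-value, and each stands for a group of libraries with no value per library. No replicate error could therefore be computed and no test between libraries was possible. Intervals given below are 95% intervals (Wilson for a share, Newcombe for a difference) that cover counting error only, and the depth behind each list is unknown.

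Examples of promoter DNA beneath the widest peaks of each class are printed so that the bases can be read beside the counts over all promoters. They are the 250 bases before the transcription start of genes whose RefSeq promoter window lies wholly inside one of the widest peaks of a class (GRCm38.p6, 5′ to 3′ on the strand of the gene). Capitals mark ACAAAG or ACAATG on either strand. Josd2 (chr7:44467730-44467979, plus strand) and Slc25a22 (chr7:141434595-141434844, minus strand) lie in peaks of both factors.
Josd2: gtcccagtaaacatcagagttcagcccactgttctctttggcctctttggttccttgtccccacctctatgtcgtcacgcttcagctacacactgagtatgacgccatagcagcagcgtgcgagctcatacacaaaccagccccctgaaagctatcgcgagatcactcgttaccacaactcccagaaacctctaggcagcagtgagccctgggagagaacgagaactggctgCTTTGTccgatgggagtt
Slc25a22: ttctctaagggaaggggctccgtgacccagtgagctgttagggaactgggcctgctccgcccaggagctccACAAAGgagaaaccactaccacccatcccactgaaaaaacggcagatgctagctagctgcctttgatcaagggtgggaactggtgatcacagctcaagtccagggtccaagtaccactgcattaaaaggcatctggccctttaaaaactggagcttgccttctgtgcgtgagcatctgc
Casz1 (chr4:148889097-148889346, plus strand), which encodes a zinc finger factor of retinal progenitors and rods, and Pagr1a (chr7:127017353-127017602, minus strand) lie in SOX9 only peaks.
Casz1: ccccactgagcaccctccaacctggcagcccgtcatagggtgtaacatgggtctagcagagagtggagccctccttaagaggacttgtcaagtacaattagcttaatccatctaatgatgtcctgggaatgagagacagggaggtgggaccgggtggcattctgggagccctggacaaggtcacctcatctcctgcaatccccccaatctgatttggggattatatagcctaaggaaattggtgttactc
Pagr1a: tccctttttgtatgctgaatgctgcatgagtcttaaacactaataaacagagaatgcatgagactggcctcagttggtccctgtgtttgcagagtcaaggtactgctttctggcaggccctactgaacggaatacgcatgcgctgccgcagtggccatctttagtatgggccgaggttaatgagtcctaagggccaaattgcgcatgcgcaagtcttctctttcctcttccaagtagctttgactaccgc
Nrtn (chr17:56757549-56757798, minus strand), the gene of the neurotrophic factor neurturin, and Celsr2 (chr3:108415580-108415829, minus strand), which encodes an adhesion receptor of planar polarity, lie in SOX8 only peaks.
Nrtn: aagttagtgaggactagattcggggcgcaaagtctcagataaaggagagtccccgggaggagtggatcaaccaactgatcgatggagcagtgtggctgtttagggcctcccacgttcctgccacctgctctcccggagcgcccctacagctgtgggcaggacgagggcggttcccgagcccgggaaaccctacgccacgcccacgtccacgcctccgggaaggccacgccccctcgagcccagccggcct
Celsr2: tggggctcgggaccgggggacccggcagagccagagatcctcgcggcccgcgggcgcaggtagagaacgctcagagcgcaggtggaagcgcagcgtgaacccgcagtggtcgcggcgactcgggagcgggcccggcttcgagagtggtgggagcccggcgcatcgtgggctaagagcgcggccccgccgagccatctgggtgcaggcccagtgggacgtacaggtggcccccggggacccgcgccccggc
A pair of rod promoters is shown beside them, chosen after their values were seen: Crx (chr7:15879956-15880205, minus strand), a homeobox factor of photoreceptors, in peaks of both factors, and Pde6b (chr5:108388123-108388372, plus strand), a subunit of the rod phosphodiesterase, in a SOX9 only peak.
Crx: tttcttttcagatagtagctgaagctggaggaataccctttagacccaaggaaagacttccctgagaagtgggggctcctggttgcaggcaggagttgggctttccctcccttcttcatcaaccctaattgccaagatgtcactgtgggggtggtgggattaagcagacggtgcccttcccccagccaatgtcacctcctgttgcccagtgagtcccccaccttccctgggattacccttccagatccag
Pde6b: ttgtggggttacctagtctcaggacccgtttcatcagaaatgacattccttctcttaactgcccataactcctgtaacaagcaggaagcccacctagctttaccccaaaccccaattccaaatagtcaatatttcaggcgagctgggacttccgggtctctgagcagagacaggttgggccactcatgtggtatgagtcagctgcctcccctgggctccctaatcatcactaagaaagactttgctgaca
Josd2 and Slc25a22 each hold 1 word in these bases, and the other 6 hold 0. GC content ran from 49.2% at Pagr1a to 75.2% at Celsr2. These promoters are examples and not typical of their classes, whose median GC content and share with a word are given next.

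Promoter windows had 300 bases, of which 250 lie before the start. SOX words were less frequent under the peaks of every class than in all windows outside the peaks of both factors. A word was present in 25.7% of all 21263 windows (25.1 to 26.3%) and in 27.2% of the windows that lay in neither factor's peaks. It was present in 15.2% of the 1221 windows inside peaks of both factors (13.3 to 17.4%), in 17.5% of the 1025 inside a SOX9 peak alone (15.3 to 19.9%) and in 14.0% of the 578 inside a SOX8 peak alone (11.4 to 17.1%). These intervals overlap one another. The windows also differed in base composition, with a median GC content of 66.3% in both, 63% under SOX9 alone and 66.3% under SOX8 alone, against 55% in neither. Windows in neither factor's peaks but in P17 H3K4me3 held a word in 18.1% (17.2 to 19.0%) at a median GC of 61.7%. That interval overlaps those of both factors and of SOX9 alone, and lies just above that of SOX8 alone. The part of base composition in the lower share was not tested, and a word in a promoter is a description of its letters, not a binding site.

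Shared regions made up more of the SOX8 list than of the SOX9 list. Of SOX8 peaks, 1417 (59.0%, 57.1 to 61.0%) were shared and 983 (41.0%) were SOX8 only. Of SOX9 peaks, 1357 (47.5%, 45.7 to 49.4%) were shared and 1498 (52.5%) were SOX9 only. In bases the asymmetry was larger, because SOX9 peaks were wider: the 4.11 Mb covered by both factors was 54.3% of the 7.57 Mb covered by SOX8 and 25.3% of the 16.3 Mb covered by SOX9. With every peak trimmed to 500 bp around its centre, 27.5% of SOX8 and 23.1% of SOX9 peaks overlapped, so the size of the shared class depends on peak width.

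Where the factors met, the SOX8 peak sat inside a broader SOX9 peak in most pairs, though not in all. There were 1422 overlapping pairs, and SOX9 was the wider peak in 1235 of them (86.8%). Over all pairs the median ratio of SOX9 to SOX8 width was 1.54. The whole lists differed in width too, with medians of 5336 bp for SOX9 and 2911.5 bp for SOX8. The SOX8 peak lay wholly inside the SOX9 peak in 821 pairs (57.7%), and the reverse held in 66 (4.64%). Centres were a median of 583 bp apart (quartiles 231 and 1323.2 bp, maximum 13043 bp), and 949 pairs (66.7%) had centres within 1 kb. Most shared SOX9 peaks, 1297, met a single SOX8 peak, while 55 held 2 and 5 held 3. Only 50 pairs (3.52%) shared under 50% of the shorter peak.

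The boundary between the classes lay among peaks that barely touched or barely missed. The smallest overlaps were 9 bp at Thra, the thyroid hormone receptor alpha gene (SOX8 peak chr11:98741267-98743605), 12 bp at Elfn2 and 15 bp at a cluster of Cuedc2, Fbxl15, Nfkb2 and Psd. The smallest gaps were 18 bp at Cacna2d4, a calcium channel subunit of photoreceptor synapses (SOX8 peak chr6:119235071-119237380, SOX9 peak chr6:119237399-119243378), 60 bp at Mllt6 and 74 bp at Gse1. Few single-factor peaks lay that close. A SOX9 peak was within 1 kb of 35 SOX8 only peaks (3.56%) and within 10 kb of 205 (20.9%), and a SOX8 peak was within 1 kb of 21 SOX9 only peaks (1.40%) and within 10 kb of 222 (14.8%). Allowing a gap of 1 kb raised the shared SOX8 share to 60.5% and the shared SOX9 share to 48.3%.

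Width separated the SOX9 classes but hardly the SOX8 classes. SOX9 only peaks had a median width of 5752.5 bp (quartiles 4526 and 6889.5 bp), against 4556 bp (3269 and 6525 bp) for SOX9 peaks shared with SOX8. SOX8 only peaks had a median of 2949 bp (2206.5 and 3873 bp) and shared SOX8 peaks one of 2892 bp (2230 and 3845 bp), so their quartiles nearly coincided. The tails differed. Peaks under 1 kb were 6.31% of SOX8 only (62 peaks) and 2.26% of shared SOX8 peaks (32), and 12 SOX8 peaks were under 120 bp, the narrowest being 1 bp. No SOX9 peak was below 120 bp. Peaks over 8 kb were 2.05% of shared SOX8 peaks and 0.509% of SOX8 only peaks. With the SOX9 list limited to its 2400 widest peaks, the number in the SOX8 list, SOX8 peaks that met only the narrowest SOX9 peaks counted as SOX8 only. The difference in medians, single-factor minus shared, was then -451 bp for SOX8 in place of 57 bp, and 571 bp for SOX9 in place of 1196.5 bp.

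**Figure D1:**
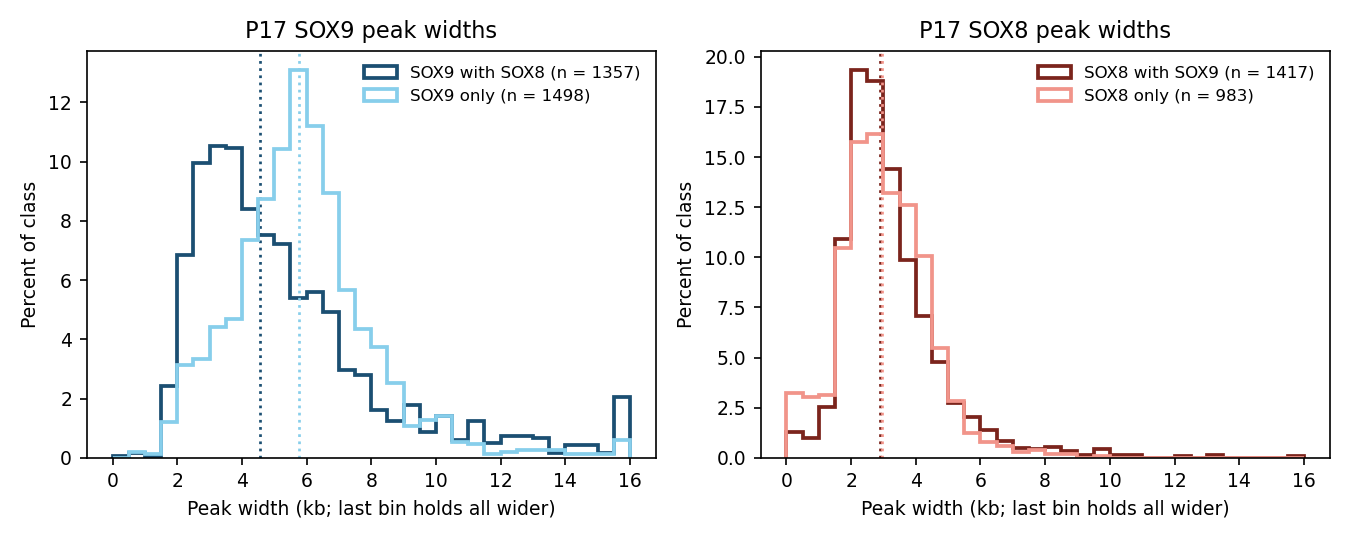
Width of P17 SOX9 (left) and SOX8 (right) peaks in kb, as the percentage of each class, with shared and single-factor peaks as separate lines. SOX9 only peaks are shifted to wider values (median 5752.5 against 4556 bp), while the SOX8 lines lie nearly on each other (2949 and 2892 bp).

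Shared regions lay closer to gene ends than regions of either factor alone. The median distance from a peak's centre to the nearest end of a protein-coding gene was 921 bp for shared SOX9 and 657 bp for shared SOX8 peaks, against 2511.5 bp for SOX9 only and 1601 bp for SOX8 only peaks. A gene end was within 1 kb of 51.7% of shared SOX9 and 31.5% of SOX9 only peaks, a difference of -20.1 points (-23.7 to -16.6). For shared SOX8 and SOX8 only peaks the shares were 58.9% and 40.4%, a difference of -18.5 points (-22.4 to -14.4). Within bins of equal width the SOX9 difference was -10.7 points (-14.1 to -7.32). With the SOX9 list limited to its 2400 widest peaks, which moves SOX8 peaks over narrow SOX9 peaks into the SOX8 only class, the SOX8 difference was -2.82 points (-6.82 to 1.19), an interval that includes 0. Centres over 10 kb from any gene end made up 28.8% of SOX9 only and 23.5% of SOX8 only peaks, against 11.4% and 11.6% of the shared classes. Nearly all peaks of every class still had a gene over them or within 5 kb, from 92.9% of SOX9 only to 96.7% of shared peaks.

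**Figure D2:**
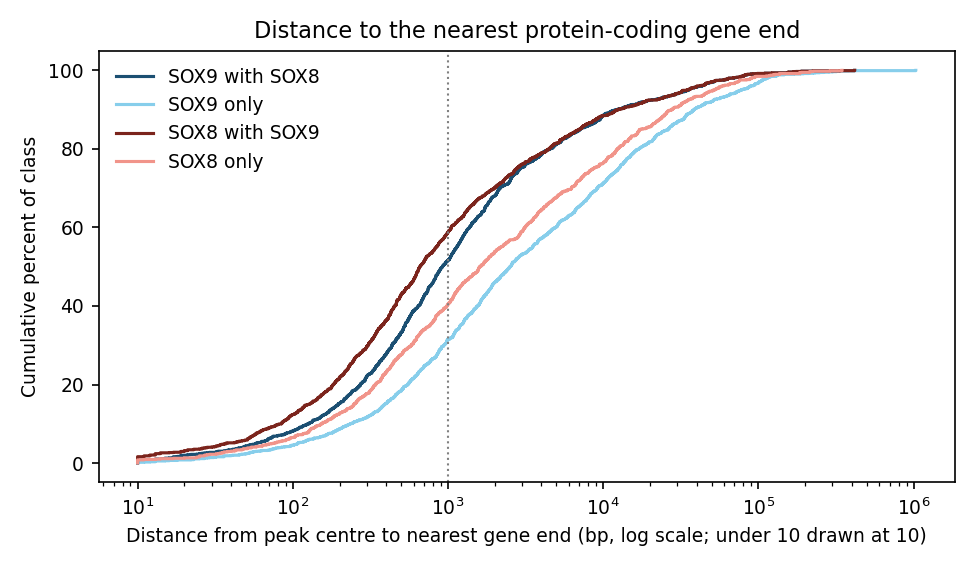
Cumulative percentage of each class (vertical axis) against the distance in bp from peak centre to the nearest protein-coding gene end (log axis), with a dotted line at 1 kb. Both shared classes rise earlier than both single-factor classes, with medians of 921 and 657 bp against 2511.5 and 1601 bp.

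The position within genes differed in the same way. Starts and ends were those of the 17492 genes in the promoter table, of 21887, on the chromosomes it covers. Of shared SOX9 peaks, 68.5% covered such a start, against 44.6% of SOX9 only peaks. The shares for SOX8 were 63.3% and 42.6%. Peaks over a gene that covered no listed start or end were 39.1% of SOX9 only and 43.6% of SOX8 only peaks, against 23.9% and 28.9% of the shared classes. They include peaks over gene ends missing from the promoter table, such as the SOX9 peak at Egr3, centred 5 bp from a gene end. The start shares may thus be too low and these shares too high. Peaks outside genes were few in every class, 8.62% of SOX9 only, 9.59% of SOX8 only, 4.23% of shared SOX9 and 4.77% of shared SOX8 peaks.

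Histone marks set shared regions apart from the rest. H3K4me3 overlapped 85.0% of shared SOX9 peaks (83.0 to 86.8%) and 49.7% of SOX9 only peaks (47.2 to 52.3%), a difference of -35.2 points (-38.3 to -32.0). It overlapped 82.8% of shared SOX8 and 50.9% of SOX8 only peaks, a difference of -31.9 points (-35.6 to -28.2), which was -16.5 points with the SOX9 list limited to its 2400 widest peaks. H3K27ac overlapped 93.9% of shared SOX9 and 75.7% of SOX9 only peaks, and 92.4% of shared SOX8 and 71.8% of SOX8 only peaks. The single-factor classes were thus alike in having about equal parts with and without H3K4me3, and their H3K4me3 shares differed by -1.13 points (SOX9 only minus SOX8 only, -5.14 to 2.89). That small difference depends on width, since within bins of equal width SOX9 only peaks had the higher share by 21.9 points (17.7 to 26.0), and with the 2400 widest SOX9 peaks the difference was -16.5 points.

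The 2 marks were also counted jointly. Regions with H3K27ac but no H3K4me3, the pattern of distal enhancers, made up 28.0% of SOX9 only and 23.9% of SOX8 only peaks, against 10.2% and 11.2% of the shared classes. Regions with neither mark were 22.2% of SOX9 only (333 peaks) and 25.2% of SOX8 only (248), against 4.79% (65) and 6.07% (86) of the shared classes. SOX9 only peaks with neither mark were wide, with a median of 6574 bp against 4756 bp for those with both marks. Shared SOX9 peaks differed in the same way, with medians of 6577 and 4173 bp. The SOX8 only medians were 3199 and 2656 bp, and the shared SOX8 medians 3258.5 and 2815 bp.

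The difference in H3K4me3 between shared and single-factor peaks of the same list was also present in most bins of similar width. Among SOX9 peaks of 4 to 8 kb, 78.5% of 608 shared and 42.9% of 1045 single-factor peaks overlapped H3K4me3. At 2 to 4 kb the SOX9 shares were closer, 98.8% of 513 and 91.0% of 233 peaks. Among SOX8 peaks of 2 to 4 kb, 86.5% of 884 shared and 60.0% of 568 single-factor peaks overlapped the mark, and at 4 to 8 kb 71.9% of 281 and 29.9% of 214. SOX9 peaks of 1 to 2 kb went the other way, with 94.1% of 34 shared and 100% of 20 single-factor peaks. SOX9 peaks of 1 to 4 kb were thus mostly at H3K4me3 in both classes, and the difference was larger among the wide ones.

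Most shared regions were already SOX peaks at P2, and most single-factor regions were not. A P2 SOX9 peak overlapped 80.8% of shared SOX9 peaks and 38.5% of SOX9 only peaks, a difference of -42.3 points (-45.5 to -39.0). A P2 SOX8 peak overlapped 65.0% of shared SOX8 and 29.3% of SOX8 only peaks, a difference of -35.7 points (-39.4 to -31.8), which was -13.9 points with the 2400 widest SOX9 peaks. No P2 peak of either factor lay at 60.7% of SOX9 only and 54.9% of SOX8 only peaks, against 18.9% and 22.8% of the shared classes.

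Many P17 SOX8 only regions had been SOX9 regions at P2. Of the 983 SOX8 only peaks, 430 (43.7%, 40.7 to 46.9%) overlapped SOX9 at P2, and 288 (29.3%) overlapped SOX8 at P2. The share with P2 SOX9 was higher in shared SOX8 peaks, 76.8%. Both P2 factors lay at 275 of the SOX8 only peaks (28.0%), P2 SOX9 alone at 155 (15.8%) and P2 SOX8 alone at 13 (1.32%). Conversely, 22.0% of SOX9 only peaks overlapped a P2 SOX8 peak, against 68.2% of shared SOX9 peaks. Of SOX9 only peaks, 17.4% overlapped P2 SOX9 alone and 0.801% P2 SOX8 alone. The P2 SOX9 list is the longer of the P2 lists, with 5476 peaks against 2653 for SOX8, and its part in these shares was not tested.

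**Figure D3:**
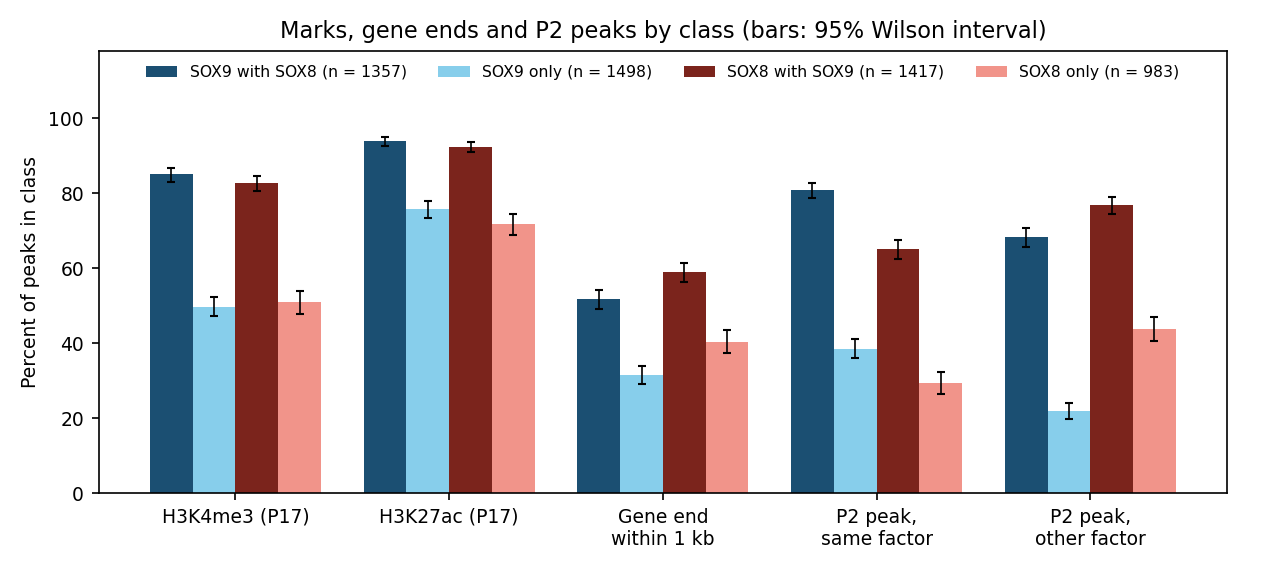
Percentage of peaks in each of the 4 classes (bars, with 95% Wilson intervals) that overlap P17 H3K4me3, P17 H3K27ac or a P2 SOX peak, or lie with the centre within 1 kb of a gene end. Shared classes stand above single-factor classes in every measure, for example 85.0% and 82.8% against 49.7% and 50.9% for H3K4me3.

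The widest regions of each class are given with their genes. The widest region that both factors covered lay at Kdm6b and Dnah2, where the 16217 bp SOX8 peak (chr11:69403785-69420001) fell wholly inside an 18535 bp SOX9 peak (chr11:69403490-69422024). Kdm6b encodes a demethylase of H3K27. Further down the 10 largest were the cluster of Stac3, Shmt2 and Ndufa4l2 with 10697 bp and that of Josd2, Aspdh and Lrrc4b with 10505 bp. Others lay at Slc25a22 with Cend1 and Pidd1, at Gnat1, at Akt1s1 with Tbc1d17, at Prr12, and at the AP-1 gene Jund. All 10 overlapped both marks, and 8 of the 10 also overlapped P2 peaks of both factors. The SOX9 peak at Slc25a22 overlapped no P2 SOX peak.

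Among SOX9 only peaks the widest covered 21810 bp at Nrxn2 (chr19:6487296-6509105), which encodes the presynaptic adhesion protein neurexin 2. Casz1 followed with 20732 bp, then a cluster of Kif22, Maz, Mvp, Pagr1a and Prrt2 with 19872 bp. Ctbp2, which encodes the ribbon protein RIBEYE, had a peak of 17498 bp. Cplx3, the complexin of ribbon synapses, shared a peak of 16498 bp with Lman1l, Scamp2 and Ulk3. Both marks overlapped 8 of the 10 widest peaks, while the peak at Camsap3, Pet100 and Xab2 (15462 bp) overlapped H3K27ac alone. The 17369 bp peak at Aebp1 and Pold2 overlapped neither mark. Others lay at Lrp1 (16147 bp) and Fam53b (15707 bp).

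SOX8 only peaks were less than 10 kb wide throughout. The widest, 9703 bp, lay at Celf4, which encodes a neuronal RNA-binding protein. Next were Nrtn with Dus3l (8878 bp, chr17:56754938-56763815), Trmt61a (8759 bp), Dnm1 with Golga2 (8153 bp) and Itpk1 (8116 bp). Dnm1 encodes the dynamin of synaptic vesicle recycling. Nfatc2 (7872 bp) had neither mark, and Cry2 with Mapk8ip1 (7765 bp), Celsr2 (7708 bp), Ncs1 (7559 bp) and Adam11 (7249 bp) completed the 10. Only 3 of these 10 overlapped H3K4me3, those at Nrtn, Cry2 and Celsr2, whereas 9 of 10 overlapped H3K27ac.

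Genes were then sorted by the peaks they carried. A gene counted when a peak lay over it or within 5 kb, and all percentages of genes below refer to 21887 protein-coding genes. A peak named at a gene may thus lie beside it, over a neighbouring gene. Either factor had a peak at 4261 genes (19.5%), SOX9 at 3445 (15.7%) and SOX8 at 2850 (13.0%). An overlapping pair lay at 1911 genes (8.73%), SOX9 peaks alone at 1349 (6.16%), SOX8 peaks alone at 808 (3.69%), and peaks of both factors that nowhere overlapped at 193 (0.882%). Of genes with a SOX9 peak, 41.0% had no SOX8 peak, and of genes with a SOX8 peak 28.6% had no SOX9 peak.

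Genes with overlapping pairs most often carried active marks. H3K4me3 lay at 94.5% of them, at 81.2% of SOX9 only, 81.6% of SOX8 only and 81.9% of separate genes, and at 42.1% of genes with no P17 SOX peak. A P2 SOX peak lay at 86.4% of genes with a pair, 57.7% of SOX9 only, 65.7% of SOX8 only and 51.8% of separate genes, against 17.9% of genes with none. Separate genes were longest, with a median of 39.0 kb against 17.4 kb for pairs. H3K4me3 lay at 11137 genes (50.9%) in all, and 33.4% of those had a peak of either factor.

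Rod photoreceptor genes had SOX9 peaks more often than SOX8 peaks. Of 30 rod genes 20 had a SOX9 peak (66.7%, against 15.7% of all genes). Among them 7 had an overlapping SOX8 peak and 13 had SOX9 alone, classes that hold 8.73% and 6.16% of all genes. SOX8 peaks thus lay at 23.3% of the rod genes, also above their 13.0% of all genes. SOX8 alone, a class that holds 3.69% of all genes, lay at 0 rod genes, which on 30 genes is close to that share. Thus 65% of the rod genes with SOX9 had no SOX8 peak, against 41.0% of all genes with SOX9. On fewer genes the share was higher in the progenitor list (3 of 4 genes with SOX9, 75%) and in the ganglion cell and Sox lists (2 of 2 genes each, 100%). All 30 rod genes had H3K4me3, a mark at 50.9% of all genes, and 6 had a P2 SOX peak. Over all genes, a P2 SOX peak lay at 86.4% of those with a pair and 57.7% of those with SOX9 only. It lay at 17.9% of genes with no P17 SOX peak. Of all genes with H3K4me3, 33.4% had a peak of either factor. SOX9 peaks at rod genes were already known from earlier results of these data, and the split by SOX8 is given as a description.

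The 7 rod genes with both factors included genes of phototransduction, the outer segment disc and rod fate. Prph2, the disc rim protein peripherin, had a SOX9 peak of 23811 bp (chr17:46908952-46932762) around a SOX8 peak of 3261 bp. Gnat1, the rod transducin alpha subunit, had a SOX9 peak of 17688 bp (chr9:107664636-107682323) that met SOX8 peaks of 9569 and 5371 bp. Nrl, the leucine zipper factor that sets rod fate, had a SOX9 peak of 12411 bp (chr14:55514903-55527313) over SOX8 peaks of 2447 and 463 bp. In all 3 the SOX8 peaks covered a part of the SOX9 region. Crx had a pair of 12563 and 3532 bp, with the promoter printed above inside both peaks, and Rom1, a partner of Prph2, one of 7027 and 3332 bp. Reep6, needed for rod membrane trafficking, had SOX9 peaks of 14240, 7595 and 7033 bp and 1 SOX8 peak of 4096 bp.

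The 13 rod genes with SOX9 alone included many of the phototransduction cascade. They were the phosphodiesterase subunits Pde6a, Pde6b and Pde6g, the transducin subunit Gnb1, the channel subunit Cngb1, arrestin (Sag), the receptor kinase Grk1, recoverin (Rcvrn), the exchanger Slc24a1, the chaperone Aipl1, the channel Kcnv2, the axoneme protein Rp1 and the nuclear receptor Nr2e3. Their peaks included 4298 bp at Pde6b (chr5:108387387-108391684), 7859 and 4258 bp at Pde6g, 4995 bp at Cngb1 and 3426 bp at Sag. Within this list the order of widths was the opposite of that in the whole SOX9 list. The 8 SOX9 peaks shared with SOX8 had a median of 13402 bp (7027 to 23811 bp), and the 19 SOX9 only peaks, which include those at Crx and Reep6, one of 7024 bp (3426 to 9724 bp). The ranges overlap between 7027 and 9724 bp. H3K27ac overlapped all 27 of these SOX9 peaks, and 16 of the 19 SOX9 only peaks overlapped no P2 SOX peak.

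**Figure D4:**
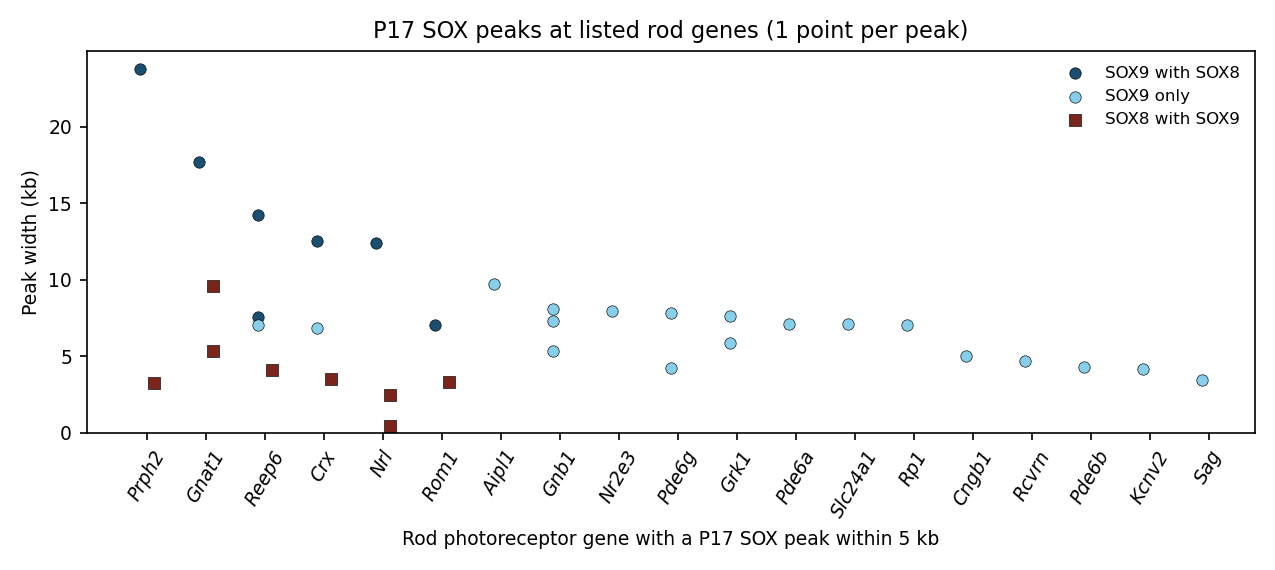
Width in kb of every P17 SOX peak at listed rod genes that have a peak (1 gene is left out; 1 point per peak, circles for SOX9 and squares for SOX8, colours for the class). The tallest points are shared SOX9 peaks, up to 23811 bp at Prph2, and no gene carries SOX8 alone.

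Synapse genes had SOX9 peaks at 12 of 22 genes (54.5%, against 15.7% of all genes). Of these, 7 had no SOX8 peak (58.3%, against 41.0% of all genes with SOX9), 4 had a pair and 1 had separate peaks (Cabp4). SOX8 peaks lay at 22.7% of the 22 genes, against 13.0% of all genes. The 22 genes are long, with a median of 62.3 kb, and all had H3K4me3. Of all genes with that mark, 33.4% had a peak of either factor. The part of length and of the mark in this count was not tested. The widest peak, at Ctbp2, was SOX9 only, though a pair of 4006 and 2245 bp lay elsewhere in that gene. Vamp2, the synaptobrevin of synaptic vesicles, had SOX9 peaks of 11634 and 5060 bp with SOX8 peaks of 7115 and 3167 bp. Cacna2d4 had a SOX9 peak of 11422 bp holding SOX8 peaks of 3904 and 2302 bp. The genes with SOX9 alone were Bsn, Rims2, Stx3, Slc17a7, Cplx3, Cplx4 and Dlg4.

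Chromatin regulators and immediate early genes had the largest shares of genes with a pair among the 16 lists. Of all genes 8.73% had a pair. Of 30 chromatin regulators 26 had a peak (86.7%, against 19.5% of all genes), with 16 pairs, 7 SOX9 only, 1 SOX8 only (Hdac7) and 2 separate (Kmt2a and Smarca4). These genes are long, with a median of 77.9 kb, all 30 had H3K4me3 (50.9% of all genes) and 27 had a P2 SOX peak. Over all genes, a P2 SOX peak lay at 86.4% of those with a pair and 17.9% of those with no P17 SOX peak. The part of length and of the mark in this count was not tested. Setd1b, an H3K4 methyltransferase, had SOX9 peaks of 9711 and 5042 bp and SOX8 peaks of 8358 and 4026 bp.

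Of 20 immediate early and AP-1 genes 15 had a peak (75%, against 19.5% of all genes). They comprised 9 with pairs, 3 SOX9 only and 3 SOX8 only, classes that hold 8.73%, 6.16% and 3.69% of all genes. The 20 genes are short, with a median of 4.66 kb, and 17 had H3K4me3. Of all genes with that mark, 33.4% had a peak of either factor. The part of the mark in this count was not tested. Junb had the widest peak, 16663 bp for SOX9 with a SOX8 peak of 2438 bp inside it. Jund had peaks of 10202 and 8215 bp, and Btg2, an early growth arrest gene, of 8177 and 3207 bp. At Nr4a1, an orphan nuclear receptor, a 10551 bp peak was SOX9 only. The genes with SOX8 alone were Fosl1, Atf3 and Maff.

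Glycolysis genes had a peak in a larger share than genes of oxidative phosphorylation. Of 22 glycolysis genes 15 had a peak, with 9 pairs, 4 SOX9 only and 2 SOX8 only (Aldoc and Slc16a3). Aldoa, the aldolase of muscle and most tissues, had peaks of 11209 bp for SOX9 and 6991 bp for SOX8, and the hexokinase gene Hk1 held SOX9 peaks of 9956, 6525, 5758 and 3498 bp. Gapdh had a SOX9 peak of 9460 bp over SOX8 peaks of 2487 and 1865 bp. Of 30 oxidative phosphorylation genes 10 had a peak, with 6 pairs, 3 SOX9 only and 1 SOX8 only. Ribosomal protein genes had peaks at 10 of 30, with 4 pairs and 3 in each single-factor class. All members of these 3 lists had H3K4me3, and 33.4% of all genes with that mark had a peak. Oxidative phosphorylation and ribosomal protein genes, each with 33.3%, lay at that share, and glycolysis genes, with 68.2%, above it. Of all genes, 8.73% had a pair, 6.16% SOX9 only and 3.69% SOX8 only. Glycolysis genes were also the longest of the 3 lists. Their median was 17.2 kb, against 7.08 kb for oxidative phosphorylation and 3.31 kb for ribosomal protein genes. The part of length in these counts was not tested.

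Müller glia genes carried P17 peaks at about the share of all genes. Of 32 genes 6 had a peak (18.8%, against 19.5% of all genes), while 21 had a P2 SOX peak and 15 had P17 H3K4me3. Of all genes, 50.9% had P17 H3K4me3. A P2 SOX peak lay at 17.9% of all genes with no P17 SOX peak. In the gene classes with one, that share ran from 51.8% (separate) to 86.4% (pair). Hes5, a Notch effector, had a SOX9 peak of 9342 bp with a SOX8 peak of 1492 bp inside it. Nfix, a factor of late progenitors and glia, had a pair of 13272 and 2949 bp and a SOX9 only peak of 5173 bp. The pair at Rdh10 is shared with the neighbouring ribosomal gene Rpl7. SOX9 alone had peaks at Apoe (7775 bp) and the homeobox gene Lhx2 (8735 bp), and SOX8 alone a peak at Dkk3 (2734 bp), a secreted protein of Müller glia. In a retina made up mostly of rod nuclei, no value here gives the signal of the glial nuclei alone.

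The other neuronal and developmental lists lay on both sides of the 19.5% of all genes. Progenitor and cell cycle genes had 6 of 22 (27.3%). SOX9 only peaks of 12813 bp lay at Six3 and of 6159 bp at Pax6, both homeobox genes of the eye field. A SOX8 only peak of 6218 bp lay within 5 kb of the replication gene Mcm2, but not over it. Bipolar cell genes had 5 of 20 (25%), among them pairs at the G protein genes Gnao1 and Gng13. A SOX8 peak of 9875 bp, within 5 kb of Gng13 but not over it, was wider than the SOX9 peak of 6514 bp that it met. Amacrine and horizontal cell genes had 3 of 20 (15%), ganglion cell genes 3 of 18 (16.7%) and cone genes 2 of 16 (12.5%). The cone genes were Gnb3 with pairs and Thrb, the thyroid hormone receptor of cones, with SOX8 alone (2318 bp). Among 20 Sox genes SOX9 alone lay at Sox10 and Sox12, and SOX8 alone at Sox13. Of 20 genes of microglia, endothelium and pigment epithelium only Aif1 had a peak, a pair, and of 20 liver genes 0 had one. The pair at Aif1 lay within 5 kb of the gene and not over it, and with a distance of 1 kb that list had 0 pairs.

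**Figure D5:**
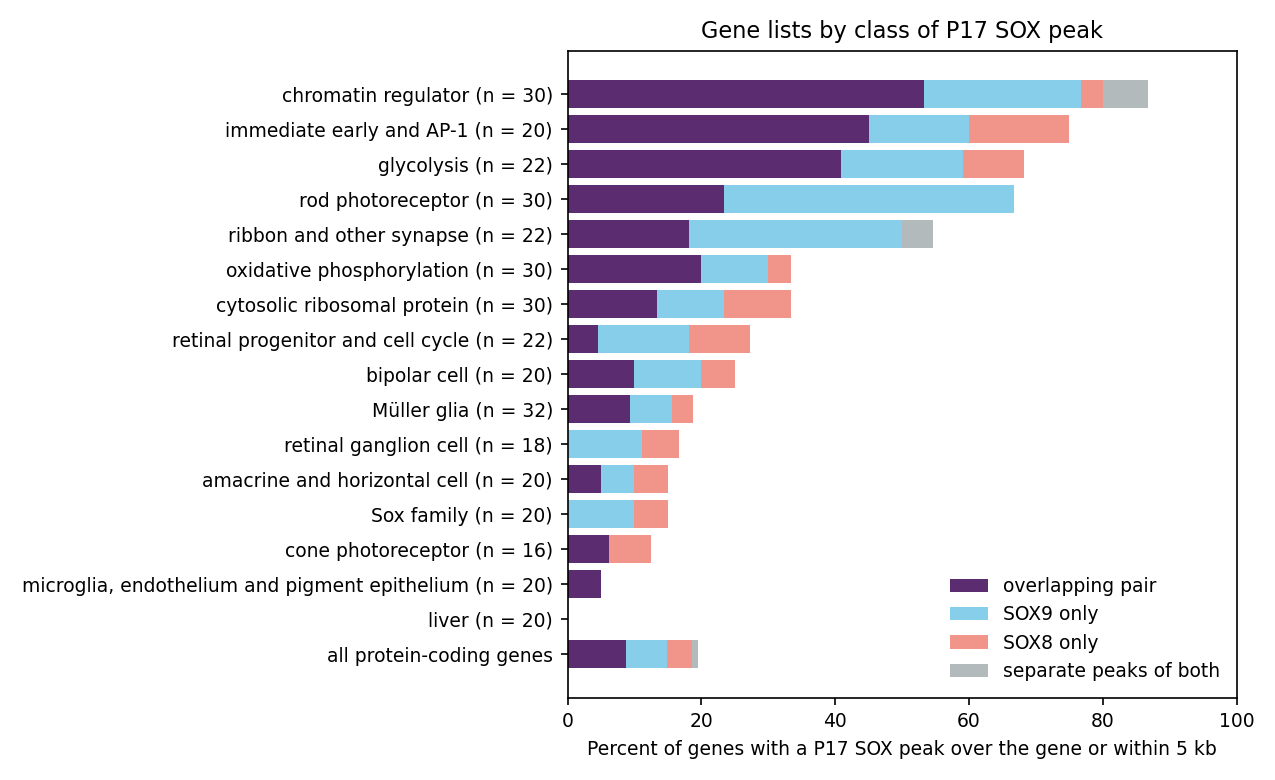
Percentage of genes in each list (horizontal axis) with a P17 SOX peak over the gene or within 5 kb, divided by colour into overlapping pairs, SOX9 only, SOX8 only and separate peaks, with all protein-coding genes as the reference bar (19.5% in all). Chromatin regulators (86.7%) and immediate early genes (75%) stand highest.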

How the data were processed

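The deposited lists give peak coordinates only (chromosome, start and end), with no score, count or library. Bowtie2, SEACR and GRCm38 are named in the submitters' processing notes, without versions or settings. How libraries and the 2 SOX8 antibodies were combined, and whether IgG served as a control, is not given in the sources used here. Classes, widths, distances and overlaps with the deposited P17 mark and P2 SOX lists were computed with Python 3.11.15, numpy 2.4.6 and pandas 2.3.3, and the procedure was tested on simulated data. Genes were 21887 protein-coding genes of the RefSeq table of GRCm38.p6. All symbols of the 16 gene lists (372 entries, 368 distinct) matched. Promoters were 21263 RefSeq windows of 17492 genes. The table has none for chromosome 18, whose peaks are left out where a gene start is needed. Starts of other genes that it lacks were not counted. Printed promoters are those nearest the peak centre.

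The members and gene lists were chosen with earlier results of these data known. Named genes are those of the 10 widest regions of each class with a gene within 5 kb and up to 4 genes per list with the widest peaks. The other members of a list that are named, the genes at the class boundary, and the Crx and Pde6b promoters were chosen after their values were seen. Alternatives changed the overlap rule, the peak set, the handling of width, the distance to a gene and the searched words. Some genes that the naming rule selects are not reported here.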

Additional observations from a re-analysis of the deposited data

How the results depend on the processing

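No paired analysis was possible because no list gives a value per library, and for the same reason no replicate could be left out. Of 102 alternatives of the main results, 66 stayed near the reported value, 31 moved and 5 reversed. Peaks trimmed to 500 bp gave overlap shares of 27.5% (SOX8) and 23.1% (SOX9), and the SOX9 list limited to its 2400 widest peaks, with the SOX8 list whole, 45.8% and 43.4%. In this setting (below, widest peaks) SOX8 peaks over narrow SOX9 peaks become SOX8 only; the cause of the other changes was not tested. The width difference of SOX8 only minus shared SOX8 peaks (57 bp) was 111 bp with peaks of at least 1 kb, 87 bp with a 50% overlap and -451 bp with the widest peaks; that of SOX9 (1196.5 bp) was 571 bp with the widest peaks.

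Within width bins, the difference of SOX9 only minus shared SOX9 peaks was -28.0 points for H3K4me3, -15.0 for H3K27ac, -10.7 for gene ends and -33.7 for P2 SOX9, and SOX9 only minus SOX8 only was 21.9, 14.7, 15.0 (reversed) and 35.5 points. With the widest peaks, SOX8 only minus shared SOX8 was -16.5, -12.3, -2.82 and -13.9 points, and SOX9 only minus SOX8 only -16.5, -4.67 (reversed), -23.1 and -10.9 (reversed). The SOX9 gene end difference there was -15.7. Trimmed peaks gave -21.1 points for H3K27ac in SOX9, and -0.0361 (reversed) for H3K27ac and 4.76 for the P2 share between the single-factor classes. Gene ends within 5 kb gave -13.7 points in SOX8. For marks, gene ends and P2 peaks, the direction between shared and single-factor peaks of a list held in all of these settings, whereas that of SOX9 only against SOX8 only did not. Genes within 50 kb gave 3829 genes with pairs, 591 separate genes and 15 separate listed genes. The longer words AACAAT and AACAAAG were in 6.14% (both), 7.22% (SOX9 alone), 6.06% (SOX8 alone) and 14.5% (neither) of promoters. Gene starts in place of gene ends, chosen after seeing the data, moved no difference beyond its interval.

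Depth is unknown, the lists carry no score, and SOX8 and SOX9 lists differ in antibodies and number of libraries, so factor and list construction cannot be told apart.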
